A study of Mus musculus with 8 samples.

Results

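The ETS factors downstream of ERK are 10 genes of 55401 in the table: the PEA3 group Etv1, Etv4 and Etv5, the ternary complex factors Elk1, Elk3 and Elk4, the factors Ets1, Ets2 and Fli1, and the repressor Erf. They were chosen by gene symbol, with earlier results of these data known, and each symbol matched 1 entry. RNA came from primary mandibular fibrochondrocytes, cells grown out of the condylar cartilage of the jaw joint, at passage 4 and under normal growth medium with serum. The 4 NG2ko libraries came from mice homozygous for a reporter-tagged deletion allele of NG2/CSPG4 (Cspg4). This global knockout was made by a Cre cross of a knockout-first line. It was supplied as a line labelled 6N and backcrossed to C57 BL/6J for a few generations only, before a homozygous colony was set up. How much donor genome remained is not given in the sources used here, so genotype and strain background cannot be told apart. The 4 WT libraries came from purchased C57 BL/6J mice, which are not stated to be littermates. Pups were 10 to 14 days old per the labels, and 14 days old per the sequencing methods. The libraries of a genotype are biological replicates per the same methods, and whether a library pooled several pups is not given in the sources used here.

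ETS proteins are transcription factors that share a DNA-binding domain, the ETS domain, which reads sites around the core GGAA. Many of them are phosphorylated by the kinase ERK and carry growth factor signals into the nucleus. The PEA3 genes are also targets of this pathway at the RNA level: in fibroblast growth factor signalling their transcripts rise when ERK is active, and the repressor Capicua keeps them low when it is not. The ternary complex factors sit with serum response factor on immediate early genes and are switched on by phosphorylation rather than by new transcription. Erf is a repressor that leaves the nucleus when ERK phosphorylates it.

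Total counts were 67197864 to 80300263 in NG2ko libraries and 60317187 to 83668935 in WT libraries, and 17190 genes passed the filter on low counts. Cspg4 itself had 563 to 1087 counts in NG2ko libraries and 13531 to 17718 in WT libraries. The genotypes also differed in 4 Y-linked genes, whose summed level was 188 to 202 CPM (counts relative to the TMM-scaled library size) in NG2ko libraries and 0 to 0.286 CPM in WT libraries, so genotype and sex of the pups cannot be told apart. Summed levels of 22 myeloid markers were 385 to 450 CPM in NG2ko and 113 to 136 CPM in WT, and no marker was at 0 in every library. Of 21 tested, 17 were higher, against 5.45% of all genes tested. Chondrocyte markers were higher too, with 9 of 11 tested, against the same share. They summed to 1271 to 1555 CPM in NG2ko and 901 to 1182 CPM in WT. Fibroblast markers summed to 45159 to 54312 CPM in NG2ko and 40635 to 49030 CPM in WT. Of 9 tested, 1 was higher and 1 lower, against 5.45% and 6.75% of all genes. For lymphoid markers, 7 of 8 had 0 counts in every library.

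Start regions of the ETS factors whose RNA differed are shown first, because the PEA3 genes moved together. RefSeq start regions (GRCm38.p6, 250 bases before to 50 after a start site) were matched for 7 of the 10 genes (all but Etv4, Ets1 and Fli1), in 11 windows. The deposited table is on the same assembly, and all 10 genes had the same coordinates in the reference annotation. The windows are printed on the strand of the gene, 5′ to 3′, with each GGAA core or its complement TTCC in capitals.
Etv1, chr12:38779832-38780131, plus strand: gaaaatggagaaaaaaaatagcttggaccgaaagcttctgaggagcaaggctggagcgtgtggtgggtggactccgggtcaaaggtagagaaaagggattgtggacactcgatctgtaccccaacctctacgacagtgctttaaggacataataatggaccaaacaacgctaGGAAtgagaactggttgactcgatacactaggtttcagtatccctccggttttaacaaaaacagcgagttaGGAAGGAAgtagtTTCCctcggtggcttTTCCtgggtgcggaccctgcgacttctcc
Etv5, chr16:22439521-22439820, minus strand: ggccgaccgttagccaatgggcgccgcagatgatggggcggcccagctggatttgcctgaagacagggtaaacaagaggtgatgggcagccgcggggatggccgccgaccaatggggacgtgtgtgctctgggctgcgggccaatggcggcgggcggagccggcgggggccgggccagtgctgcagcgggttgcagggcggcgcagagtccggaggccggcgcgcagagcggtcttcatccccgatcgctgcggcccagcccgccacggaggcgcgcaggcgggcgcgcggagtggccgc
Etv5, a second start, chr16:22438319-22438618, minus strand: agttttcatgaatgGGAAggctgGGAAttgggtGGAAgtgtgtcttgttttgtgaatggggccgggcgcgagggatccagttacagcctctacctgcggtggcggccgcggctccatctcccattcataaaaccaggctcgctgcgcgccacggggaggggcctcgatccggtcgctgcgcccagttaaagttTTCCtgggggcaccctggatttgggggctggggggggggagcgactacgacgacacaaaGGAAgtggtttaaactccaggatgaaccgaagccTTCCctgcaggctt
Ets2, chr16:95702157-95702456, plus strand: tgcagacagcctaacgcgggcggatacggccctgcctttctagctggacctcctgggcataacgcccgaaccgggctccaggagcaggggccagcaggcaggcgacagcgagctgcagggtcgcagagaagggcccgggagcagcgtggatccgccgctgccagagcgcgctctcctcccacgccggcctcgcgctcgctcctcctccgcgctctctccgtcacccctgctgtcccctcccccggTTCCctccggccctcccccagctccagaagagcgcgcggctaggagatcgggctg
Elk3, chr10:93311110-93311409, minus strand: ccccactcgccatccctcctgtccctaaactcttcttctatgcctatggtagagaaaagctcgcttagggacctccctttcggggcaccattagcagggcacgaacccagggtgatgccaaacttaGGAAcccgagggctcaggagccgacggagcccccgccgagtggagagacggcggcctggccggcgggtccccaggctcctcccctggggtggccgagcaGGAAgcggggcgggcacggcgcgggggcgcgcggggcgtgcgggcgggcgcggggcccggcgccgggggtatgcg

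The first Etv5 window has no GGAA core on either strand, while 96.0% of all 32851 mouse windows of this length hold one. Its G and C content is 74.0%, near that of the windows of Ets2 (71.7%) and Elk3 (71.3%) and above the 48.7% of the Etv1 window shown, the 44.0% of a second Etv1 window not shown, and the median of 52.7% over all windows. The longer ETS site CCGGAA, which overlaps the core, is in none of these 5 windows and in 14.9% of all windows, and of the 11 windows it is found in 1, of Elk4. The GC box GGGCGG is in 7 of the 11 windows and in 35.7% of all. The Capicua site TGAATGNA (3.82% of all windows), the AP-1 site TGANTCA (7.81%) and the CArG box bound by serum response factor (1.63%) are in none of the 11. All motifs were searched on both strands. A window without a match says only that these letters are not in these 300 bases.

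To characterize how the ETS factors downstream of ERK differ without NG2/CSPG4, each was compared between NG2ko and WT. All 3 PEA3 genes and Elk3 were lower in NG2ko cells and Ets2 was higher. The other 5 did not pass the test. Of the 10 genes, 4 were called lower, against a background of 6.75% of all genes tested, and 1 was called higher, against 5.45%. Because the 10 genes were chosen with earlier results of these data known, these shares only describe them. The test was edgeR's quasi-likelihood test with Benjamini-Hochberg adjustment over all 17190 genes, at an adjusted p under 0.05. All NG2ko libraries lay below all WT libraries in 5 of the 10 genes, against 10.1% of all genes, and above them in 2, against 9.81%. The median log2 fold change of the 10 genes was -0.23, and that of all genes 0.02. At the study's own thresholds, which ask for at least a doubling or its inverse (beyond 1 on the log2 scale) at p under 0.05 without adjustment, Etv1 was the 1 gene called lower (1.15% of all genes) and 0 of the 10 were called higher (2.06% of all genes). By edgeR, 6 of the 10 had an unadjusted p under 0.05. That level was common among all genes: Atxn1, at an unadjusted p of 0.0507 in edgeR, held rank 4407 of 17190 by p.

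**Figure D1:**
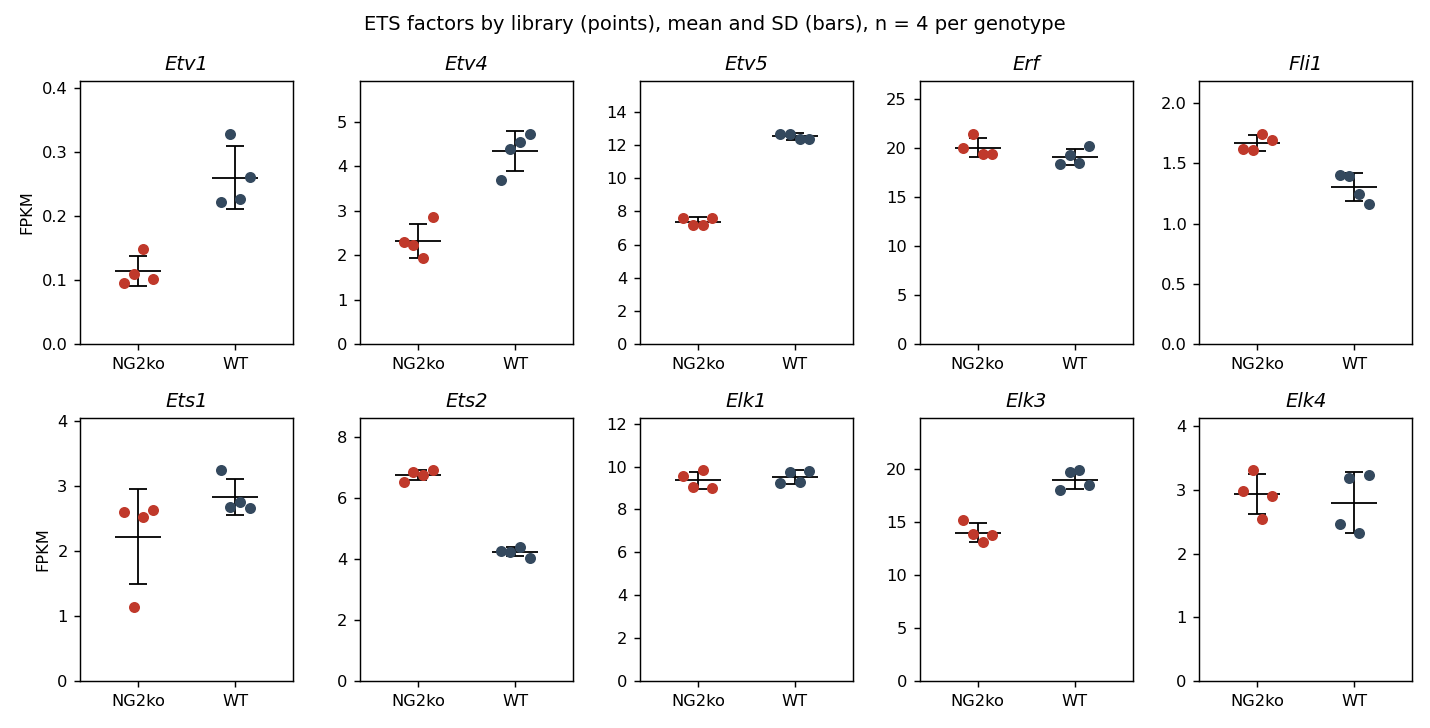
FPKM of each ETS factor in each library (points, in replicate order), with the mean and SD of 4 NG2ko and 4 WT libraries (bars), on axes that start at 0. Etv1, Etv4, Etv5 and Elk3 are lower and Ets2 is higher in all NG2ko libraries, and NG2ko replicate 2 stands below the rest in Ets1.

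Etv5 (ENSMUSG00000013089, chromosome 16 from 22381309 to 22439719) is the most abundant of the PEA3 genes here. It had 33.9, 32.3, 32.2 and 33.6 CPM in NG2ko libraries, against 58.2, 58.5, 56.0 and 57.3 CPM in WT libraries. The 4 libraries of each genotype lay within a narrow band, and the bands were far apart. The level in NG2ko was 42.6% lower, or -0.80 ± 0.05 as a log2 fold change (SE; edgeR adjusted p = 9.66e-06), which placed Etv5 at rank 25 of all genes by p.

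Etv4 (ENSMUSG00000017724, chromosome 11 from 101769742 to 101785371), the gene of the founding protein PEA3, had 7.83, 7.61, 6.61 and 9.59 CPM in NG2ko libraries, against 12.9, 15.3, 15.7 and 16.6 CPM in WT libraries. The highest NG2ko library, replicate 4, stayed below the lowest WT library, replicate 1. The level was 47.7% lower, a log2 fold change of -0.94 ± 0.13 (SE; edgeR adjusted p = 0.000933).

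Etv1 (ENSMUSG00000004151, chromosome 12 from 38779380 to 38870484), also known as ER81, was by far the least abundant of the 10. It had 113, 109, 176 and 103 counts in NG2ko libraries, or 1.4, 1.62, 2.17 and 1.47 CPM. In WT libraries it had 197, 406, 234 and 253 counts, or 3.32, 4.93, 3.34 and 3.94 CPM. The groups did not overlap, and WT replicate 2 and NG2ko replicate 3 were the highest of their groups. Its log2 fold change was the largest of the 10 in size, at -1.22 ± 0.20 (SE; edgeR adjusted p = 0.00291). The 95% intervals of the 3 PEA3 genes overlapped, running from -1.66 to -0.78 for Etv1, from -1.22 to -0.66 for Etv4 and from -0.91 to -0.69 for Etv5, and differences between their fold changes were not tested.

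In FPKM, which is per length, the PEA3 genes together had 9.82 ± 0.576 in NG2ko and 17.1 ± 0.366 in WT (SD, n = 4 each). They made up 14.2% to 15.8% of the summed FPKM of the 10 genes in NG2ko libraries and 22.4% to 22.7% in WT libraries. The ratio of Etv5 to Etv4 in FPKM was 3.22 ± 0.424 in NG2ko and 2.91 ± 0.362 in WT (SD, n = 4 each), with overlapping ranges.

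**Figure D2:**
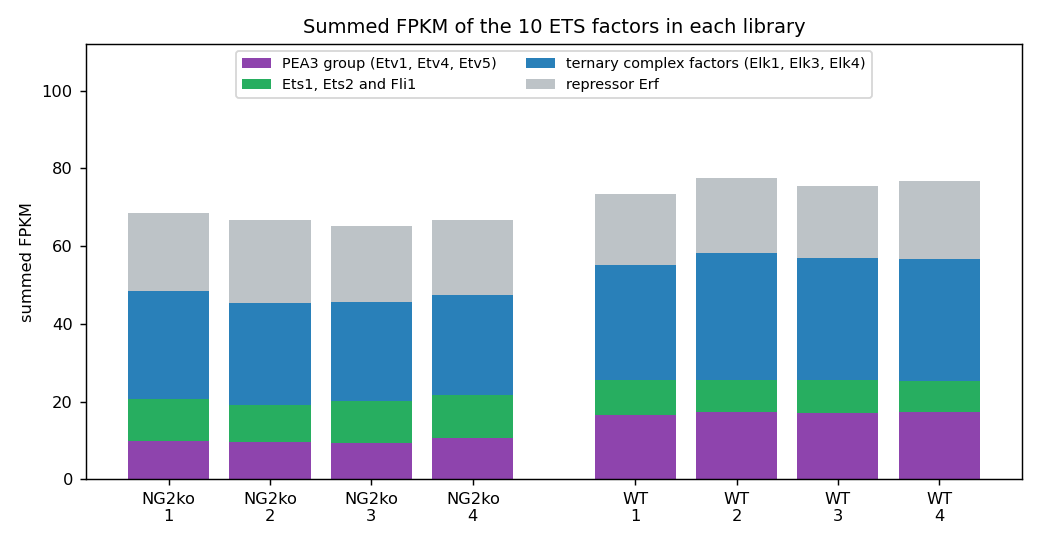
Summed FPKM of the 10 ETS factors in each library, NG2ko on the left and WT on the right, split by role. The PEA3 part is 9.24 to 10.5 FPKM in NG2ko and 16.6 to 17.4 in WT, while the part of Ets1, Ets2 and Fli1 is larger in NG2ko.

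Among the ternary complex factors, Elk3 was lower, and no change of Elk1 or Elk4 passed the test. Elk3 (ENSMUSG00000008398, chromosome 10 from 93247414 to 93311135), also known as Net, a repressor that turns into an activator once phosphorylated, had 75.4, 69.3, 65.5 and 67.4 CPM in NG2ko libraries. In WT libraries it had 91.5, 100.7, 99.9 and 94.8 CPM, all above the NG2ko libraries. The level was 28.3% lower, a log2 fold change of -0.48 ± 0.06 (SE; edgeR adjusted p = 0.000560). Elk3 overlaps Cdk17 on the opposite strand over 18330 bases, and whether the counting used strand is not given in the sources used here. Cdk17 had 33.1 ± 1.67 CPM in NG2ko and 30.4 ± 4.39 CPM in WT (SD, n = 4 each; log2 fold change 0.12, adjusted p = 0.509, edgeR).

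Elk1 (ENSMUSG00000009406, chromosome X from 20933395 to 20950608), the best known of the ternary complex factors, had 56.1, 53.4, 57.9 and 52.2 CPM in NG2ko libraries and 55.5, 58.9, 55.2 and 59.7 CPM in WT libraries. The groups overlapped, and the 95% interval of its log2 fold change ran from -0.19 to 0.06 (adjusted p = 0.546, edgeR). It lies on chromosome X, and Xist, the RNA that coats an inactive X, averaged 1.07 ± 1.49 CPM in NG2ko and 178 ± 51.2 CPM in WT (SD, n = 4 each). Elk1 shares 8887 bases of its span with Uxt on the same strand, so reads in that stretch could be split between them.

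Elk4 (ENSMUSG00000026436, chromosome 1 from 132007607 to 132032612), also known as SAP-1, had 20.8, 23.3, 17.9 and 20.1 CPM in NG2ko libraries and 17.7, 23.0, 16.5 and 23.4 CPM in WT libraries. Its WT libraries fell into a lower and a higher pair that spanned the NG2ko values. The 95% interval of its log2 fold change ran from -0.26 to 0.32 (adjusted p = 0.933, edgeR). Elk4 overlaps Mfsd4a on the opposite strand over 9807 bases.

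Ets2 (ENSMUSG00000022895, chromosome 16 from 95702075 to 95721051), whose protein ERK activates by phosphorylation next to its pointed domain, was the 1 member called higher. It had 41.0, 43.4, 42.8 and 43.0 CPM in NG2ko libraries, against 27.6, 27.5, 28.1 and 26.4 CPM in WT libraries. Each genotype was tightly grouped. The level was 1.55-fold higher in NG2ko, a log2 fold change of 0.64 ± 0.05 (SE; edgeR adjusted p = 5.30e-05). Ets2 and Etv5 lie on the same chromosome, 73.3 Mb apart, and moved in opposite directions. The ratio of Ets2 to Etv5 in FPKM was 0.916 ± 0.0435 in NG2ko and 0.338 ± 0.0128 in WT (SD, n = 4 each).

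Ets1 and Fli1 are neighbours on chromosome 9, 93.4 kb apart, and lie 24.1 Mb from Cspg4. Whether donor genome around the deleted gene reaches them was not tested. Fli1 (ENSMUSG00000016087, chromosome 9 from 32422204 to 32542861), a factor of blood, vessel and connective tissue cells, had 6.16, 6.19, 6.68 and 6.36 CPM in NG2ko libraries and 5.51, 5.48, 4.81 and 4.61 CPM in WT libraries. All NG2ko libraries were above all WT libraries, yet Fli1 did not pass over all genes, with a log2 fold change of 0.31 ± 0.10 (SE; edgeR adjusted p = 0.0826). It passed in fits of log2 FPKM with limma (adjusted p = 0.0412 at a pseudocount of 0.1, within a range of 0.0368 to 0.199 over 19 alternatives). Macrophages and endothelial cells also make Fli1 and Ets2, and the myeloid markers, higher in the same NG2ko libraries, are given above. In bulk RNA, more cells of a type and more RNA per cell cannot be told apart. The part of myeloid cells in these 2 genes was not tested.

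Ets1 (ENSMUSG00000032035, chromosome 9 from 32636221 to 32757820), the founding member of the family, had 24.0, 10.6, 23.3 and 24.1 CPM in NG2ko libraries and 30.7, 25.5, 25.8 and 25.5 CPM in WT libraries. All NG2ko libraries were below all WT libraries, but NG2ko replicate 2 stood far below the others, with 712 counts, and the test did not pass (log2 fold change -0.39 ± 0.25, SE; edgeR adjusted p = 0.390). Without NG2ko replicate 2, the log2 fold change was -0.17 (adjusted p = 0.271, edgeR). The neighbour Fli1 was not low in that library.

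Erf (ENSMUSG00000040857, chromosome 7 from 25242561 to 25250761), the repressor, had 78.4, 85.0, 76.4 and 75.3 CPM in NG2ko libraries and 74.1, 78.3, 73.9 and 82.3 CPM in WT libraries. The groups overlapped, and the 95% interval of its log2 fold change ran from -0.10 to 0.16 (adjusted p = 0.806, edgeR). A change of the size seen in Etv5 or Ets2 lies outside that interval and outside those of Elk1 and Elk4, but not outside that of Ets1 on the lower side.

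**Figure D3:**
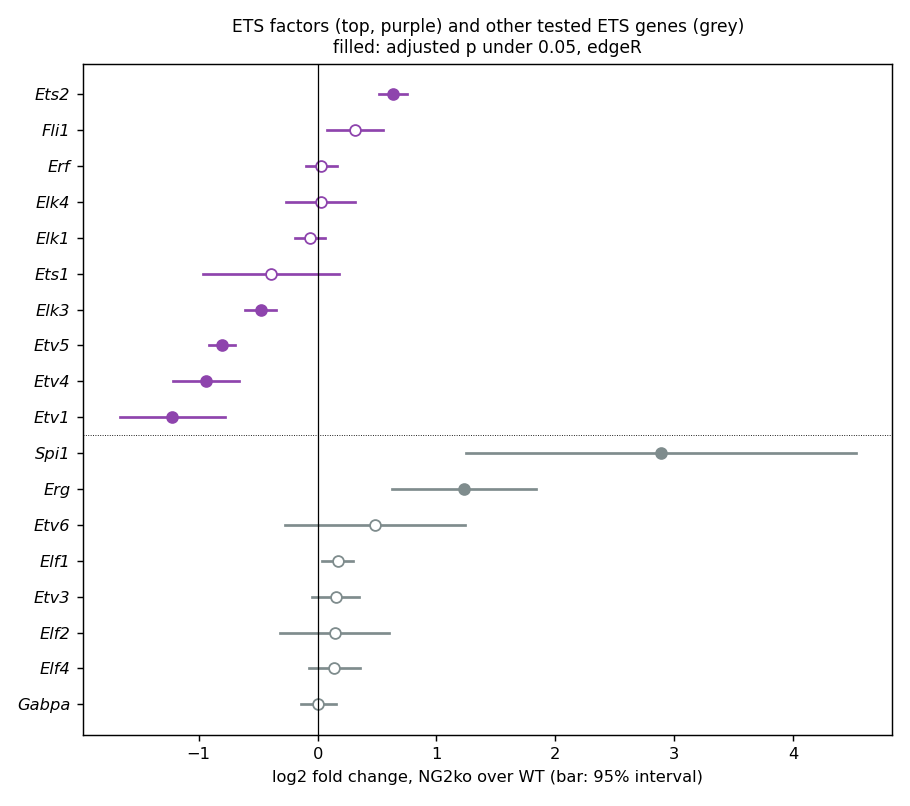
Log2 fold change of NG2ko over WT with its 95% interval for the 10 ETS factors (purple, upper part) and 8 other tested ETS genes (grey, lower part); filled points have an adjusted p under 0.05 in edgeR. Etv1, Etv4, Etv5 and Elk3 are called below 0 and Ets2 above it; Ehf, with a standard error of 1.07, is not drawn.

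Levels of different genes were compared in FPKM. In NG2ko cells Erf was highest (20.03 ± 0.993 FPKM), followed by Elk3 (14.0 ± 0.877), Elk1 (9.35 ± 0.412), Etv5 (7.38 ± 0.248) and Ets2 (6.75 ± 0.170; SD, n = 4 each), with the ranges of these neighbours apart. Below them, Elk4 (2.94 ± 0.311 FPKM) and Etv4 (2.33 ± 0.382) overlapped, as did Etv4 and Ets1 (2.22 ± 0.726), and Ets1 and Fli1 (1.67 ± 0.0628). Etv1 was last at 0.114 ± 0.0233 FPKM. In WT cells Erf (19.1 ± 0.842 FPKM) and Elk3 (19.0 ± 0.922) overlapped at the top, and Etv5 (12.5 ± 0.186) stood above Elk1 (9.51 ± 0.308). Etv4 (4.33 ± 0.450 FPKM) and Ets2 (4.23 ± 0.150) overlapped in WT, as did Ets1 (2.83 ± 0.274) and Elk4 (2.80 ± 0.477), and Fli1 (1.30 ± 0.117) and Etv1 (0.260 ± 0.0492) came last. Etv5 thus held place 4 in NG2ko, below Elk1, and place 3 in WT, above it.

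The rest of the ETS family was set beside the 10 genes. Of 17 other ETS genes listed, 16 were in the table and 9 had counts enough to test. Of these 9, 2 were higher, against 5.45% of all genes, and 0 lower, against 6.75%, by edgeR (0 lower also at an unadjusted p under 0.05 and by DESeq2), with a median log2 fold change of 0.17. Erg, a factor of vessel cells that is also made in developing joint cartilage, had 5.29, 4.84, 3.71 and 3.98 CPM in NG2ko libraries, against 0.99, 2.76, 1.74 and 2.07 CPM in WT libraries. Its groups did not overlap (log2 fold change 1.23 ± 0.27, SE; edgeR adjusted p = 0.0153). The endothelial markers Pecam1, Kdr, Tek, Flt1 and Egfl7, tested beside Erg, did not pass, and all 14 markers of that list summed to 10.0 to 11.1 CPM in NG2ko and 6.50 to 8.59 CPM in WT, Erg included. Spi1, which encodes PU.1, the myeloid member of the family and itself a myeloid marker, had 1.90, 1.74, 1.88 and 2.13 CPM in NG2ko libraries and 0.455, 0, 0.271 and 0.327 CPM in WT libraries. Its call (log2 fold change 2.89, adjusted p = 0.0340, edgeR) was lost in 9 of 19 alternatives, 7 of them fits that left out 1 library, with an adjusted p of 8.05e-05 to 0.0875. Spib had 4 counts and Spdef 12 counts over all 8 libraries, and Elf3, Elf5, Etv2, Fev and Spic had 0.

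Many feedback and output genes of ERK were lower in NG2ko cells, as the PEA3 genes were. Their list was chosen with earlier results of these data known. It leaves out immediate early genes that ERK also induces, which stand in the list of the next paragraph. Of those, Egr1, Egr2, Egr3, Fos, Fosb, Junb, Ier2 and Nr4a1 did not pass. Of 18 feedback and output genes of ERK, 11 were lower and 0 higher (edgeR; Myc was higher at an unadjusted p under 0.05, and 0 were higher by DESeq2), against 6.75% of all genes lower, and the median log2 fold change was -0.46. Ccnd1, the gene of cyclin D1, had 542 ± 10.5 CPM in NG2ko and 877 ± 16.7 CPM in WT (SD, n = 4 each; log2 fold change -0.69, adjusted p = 6.63e-06, edgeR). Fosl1, which encodes the AP-1 subunit FRA-1, had 7.24 ± 0.539 CPM in NG2ko and 15.1 ± 1.35 CPM in WT (SD, n = 4 each; log2 fold change -1.06, adjusted p = 8.60e-05, edgeR). The ERK inhibitors Spry4 (log2 fold change -0.91) and Spred3 (-0.69) were lower as well. The other 7 called were Dusp4 (-1.33), Phlda1 (-0.65), Spry1 (-0.63), Dusp5 (-0.52), Spry2 (-0.49), Dusp6 (-0.43) and Spred2 (-0.41). The members that did not pass were Spred1 (-0.14), Myc (0.14), Il17rd (0.37), Epha4 (0.05), Epha2 (-0.02), Dusp7 (0.02) and Ier3 (0.00).

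Of 12 genes of the axis of serum response factor and its ternary complex partners, 1 was called lower and 0 higher (edgeR and DESeq2, and 0 higher also at an unadjusted p under 0.05). These counts are near the shares over all genes, 6.75% lower and 5.45% higher, and the median was -0.05. The 1 called was Mcl1, a survival factor (log2 fold change -0.19, adjusted p = 0.0275, edgeR). Srf itself had 53.2 ± 2.55 CPM in NG2ko and 50.01 ± 2.87 CPM in WT (SD, n = 4 each; log2 fold change 0.09, adjusted p = 0.413, edgeR). Egr1 (-0.23), Fos (0.16), Fosb (0.15), Junb (0.04) and Ier2 (0.04) did not pass. Egr1, Fos, Junb and Ier2 had their highest NG2ko value in replicate 4, with 13.0 ± 4.55 CPM in NG2ko and 11.6 ± 2.67 CPM in WT for Fos (SD, n = 4 each).

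Along the cascade itself, 3 of 24 genes were higher, against 5.45% of all genes, and 2 lower, near the 6.75% of all genes, and the median log2 fold change was 0.02. The kinase genes Rps6ka5 (log2 fold change 0.66), which encodes MSK1, and Map2k1 (0.24), which encodes MEK1, were among the 3 higher. Map2k1 lies on chromosome 9, as Cspg4 does, and whether donor genome around the deleted gene reaches it was not tested. Rasa1 (-0.41), a GTPase-activating protein that turns Ras off, and Ptpn11 (-0.22), the phosphatase SHP2, were lower. Mapk3, which encodes ERK1, did not pass (-0.18 on the log2 scale, edgeR adjusted p = 0.0988). Only RNA was measured in these libraries, and phosphorylation was not.

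Genes known to control the PEA3 group moved in both directions. Of 10 such genes, 3 were higher, against 5.45% of all genes, and 2 lower, against 6.75%, with a median log2 fold change of 0.01. Fgfr1, the main fibroblast growth factor receptor of fibroblasts, had 253 ± 16.4 CPM in NG2ko and 368 ± 34.8 CPM in WT (SD, n = 4 each, as for the receptors below; log2 fold change -0.54, adjusted p = 0.00102, edgeR). The other receptor genes of the list went the opposite way. Fgfr2 had 171 ± 14.3 CPM in NG2ko and 100 ± 8.37 CPM in WT (0.77, adjusted p = 0.000136, edgeR). Fgfr3 had 8.26 ± 0.670 CPM in NG2ko and 3.96 ± 0.644 CPM in WT (1.06, adjusted p = 0.000667, edgeR). Cic, the gene of the repressor Capicua, was lower (-0.25, adjusted p = 0.0255, edgeR). The ubiquitin ligase genes Cop1 (0.11) and Det1 (0.05), whose products direct PEA3 proteins to degradation, did not pass. Fbxw7 (0.42, adjusted p = 0.0406, edgeR), another ligase gene, was higher. Of the genes called in this list, Cic and Fbxw7 had the largest adjusted p. In fits that left out 1 library, 2 to 3 genes of the list were called higher and 1 to 2 lower. Which genes lost their call is not reported here.

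**Figure D4:**
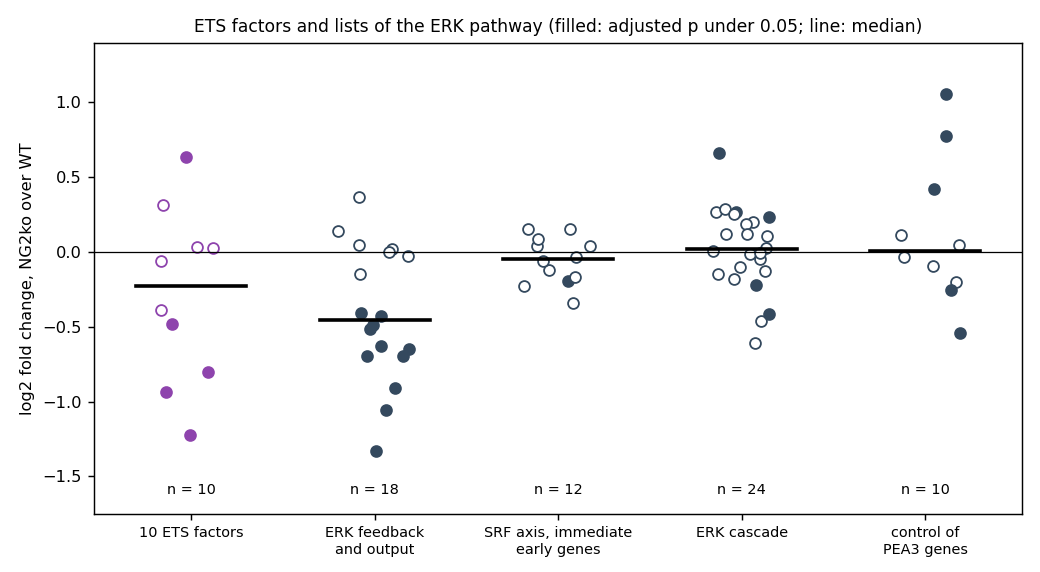
Log2 fold change of NG2ko over WT for each gene (point) of the 10 ETS factors and of 4 lists of the ERK pathway; filled points have an adjusted p under 0.05 in edgeR, and lines are medians. The median of the 18 feedback and output genes is -0.46, that of the 12 genes of the SRF axis -0.05, of the 24 cascade genes 0.02 and of the 10 control genes 0.01.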

How the data were processed

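RNA of primary mandibular fibrochondrocytes was measured in 4 NG2ko and 4 WT libraries, grouped by the sample titles. Before deposit, the authors trimmed and filtered the reads, aligned them by HISAT2 against Ensembl release 101 of the mouse, and ran StringTie and edgeR on the alignments. Versions of these tools are not given in the sources used here. The deposited table holds whole-number counts per gene, not normalized, and FPKM, which the authors computed with StringTie. Libraries were poly(A)-selected and stranded, and the counter is not given in the sources used here.

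Counts were scaled by TMM, filtered by filterByExpr (count minimum 10) and tested with edgeR 4.0.16 under R 4.3.3 (quasi-likelihood, robust prior, genotype as the only term). The standard error is the absolute log2 fold change over the square root of F, and the 95% interval uses the test's degrees of freedom. DESeq2 1.42.0, limma 3.58.1 with voom or on log2 FPKM, other scalings and filters, a replicate block and leaving out each library served as alternatives. An ordinary prior, and non-overlap under other scalings, were added after seeing the data. The fit was tested on simulated data.

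The 10 genes and the lists were chosen with earlier results of these data known. The rule for named genes took Cspg4, all 10 members, other ETS genes that were called, and from each pathway list up to 4 called genes with the smallest p. Other named genes were chosen after their values were seen, and some genes of the lists are not reported here by name. Python 3.11.15 and matplotlib 3.10.9 drew the figures.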

Additional observations from a re-analysis of the deposited data

Results flagged for a closer look

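Dixon's criterion was applied to 124 groups of 4 libraries, from 62 genes named in the text in 2 genotypes. The rule for named genes gave 26 of the 62. In 20 groups it found a library far from the other 3. The criterion flags about 1 group in 20 by chance when groups are independent. Some of these genes were named after their values were seen, and all share the same libraries. The count therefore cannot be judged against that rate. Ets1 had 10.6 CPM in NG2ko replicate 2, against 23.3 to 24.1 CPM in the other NG2ko libraries. It was also set apart in WT replicate 1, at 30.7 CPM against 25.5 to 25.8 CPM. In NG2ko replicate 2, Ets1 was 1.17 below the other NG2ko libraries on the log2 scale (a difference of -1.17). Of 9433 genes averaging 10 CPM or more, 46 lay 1 or more below the others in that library, and 39 to 68 did so in each of the 8 libraries. Ccnd1 had 558 CPM in NG2ko replicate 3, against 536 to 538 CPM in the others, and 901 CPM in WT replicate 4, against 864 to 871 CPM. Fosl1 (17.1 CPM, against 14.1 to 14.6) and Spred3 (18.6 CPM, against 15.5 to 15.98) were high in WT replicate 1, and Fgfr2 was high in WT replicate 2, at 112.5 CPM against 94.8 to 96.6 CPM. In NG2ko replicate 4, 6 genes were high: Egr1 (173 CPM, against 121 to 127), Fos (19.7, against 10.1 to 11.2), Junb (55.6, against 39.01 to 41.2), Ier2 (47.9, against 34.0 to 36.2), Ier3 (31.6, against 24.6 to 25.7) and Il17rd (18.1, against 4.49 to 5.89). Among the other NG2ko libraries, Elf2 (33.4 CPM, against 58.5 to 61.3) and Xist (3.30 CPM, against 0.197 to 0.430) stood apart in replicate 1, Dusp7 (34.1 CPM, against 28.6 to 29.2) in replicate 2 and Dusp5 (8.89 CPM, against 9.74 to 9.92) in replicate 3. In WT replicate 4, Xist (101.9 CPM, against 197 to 210) and Fbxw7 (10.1 CPM, against 13.1 to 13.5) were low and Det1 (16.6 CPM, against 14.6 to 14.8) was high.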

How the results depend on the processing

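Over the 19 alternatives, 5 genes kept their call and direction in each: Etv1 (log2 fold change -1.38 to -0.18, the last with a pseudocount of 1 FPKM), Etv4 (-1.04 to -0.68), Etv5 (-0.82 to -0.69), Elk3 (-0.52 to -0.42) and Ets2 (0.57 to 0.68). Ets1, Elk1, Elk4 and Erf passed in none. With 2 members called higher, the FPKM fits at pseudocounts of 0.1 and 1 differed from the count of 1 reported, by Fli1. In fits that left out 1 library, 1 to 1 members were higher and 4 to 4 lower, and 613 (without NG2ko replicate 3) to 900 genes of all were higher and 838 to 1089 lower. Among all genes the balance turned with the scaling: 937 were higher and 1160 lower with TMM, 1266 and 947 with library totals only, and 1213 and 905 with FPKM at a pseudocount of 0.1. The median of all genes stayed within 0.01 to 0.06 on the log2 scale. Non-overlap counts of 2 above and 5 below were the same in upper-quartile CPM, CPM by totals and FPKM.

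List counts moved as follows, and the cause was not tested. Other ETS genes higher numbered 1 without a filter and with the replicate block. ERK cascade genes lower numbered 4 with the stricter filter and with DESeq2 and 1 with FPKM at 0.1, and 5 were higher with library totals only. Feedback genes higher numbered 1 with library totals only and in both FPKM fits. SRF axis genes lower numbered 0 with library totals only and in both FPKM fits. Control genes lower numbered 1 in both FPKM fits and with the replicate block. In fits that left out 1 library, other ETS genes higher were 1 to 2, ERK cascade genes 2 to 3 higher and 1 to 3 lower, feedback genes 10 to 11 lower, SRF axis genes 0 to 1 lower, and control genes 2 to 3 higher and 1 to 2 lower.

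With the replicate number as a block, 1 member was higher and 4 lower, and 792 genes of all were higher and 1023 lower. Deviations of same-numbered libraries correlated at 0.00099 to 0.0441, below the bound of 0.1 used here for pairing, and the main test did not pair them. Yet 6 of 8 libraries correlated best with their own number, so whether the numbers pair the samples weakly is not settled. In Etv1 (from 103 counts) and Spi1, low counts limit the precision.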

Other observations

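Some genes of the other ETS and pathway lists varied widely between libraries of the same genotype. Etv6, a repressor of the ETS family, had 48.8, 45.4, 51.7 and 42.8 CPM in NG2ko libraries and 39.8, 43.4, 37.6 and 14.4 CPM in WT libraries, with WT replicate 4 apart (log2 fold change 0.48, adjusted p = 0.419, edgeR). Elf2 had 33.4 CPM in NG2ko replicate 1 and 58.5 to 61.3 CPM in the other NG2ko libraries, against 42.2 to 56.1 CPM in WT. Fgf2, a growth factor that activates ERK, had 5.49, 47.3, 43.7 and 39.8 CPM in NG2ko libraries and 62.0, 63.1, 17.4 and 2.63 CPM in WT libraries. Etv5 stayed at 32.2 to 33.9 CPM in NG2ko and 56.0 to 58.5 CPM in WT in the same libraries. Its relation to Fgf2 was not tested. Grb2, the adaptor that couples receptors to Ras, had 43.1, 48.2, 51.6 and 77.8 CPM in NG2ko libraries and 78.5, 83.7, 88.3 and 85.3 CPM in WT libraries. All NG2ko values were below the WT values, replicate 4 by little, and Grb2 did not pass (log2 fold change -0.61, adjusted p = 0.0564, edgeR).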
